A study of Mus musculus with 8 samples.

Results

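The immunity-related GTPases (IRG) and the guanylate-binding proteins (GBP) are the large GTPase families that mouse cells make in response to interferon. Described here are 10 of their genes, 5 IRG genes (Iigp1, Irgm1, Irgm2, Igtp and Ifi47) and 5 GBP genes (Gbp2, Gbp3, Gbp5, Gbp6 and Gbp7), chosen by name from the 18768 genes of the deposited table. All 10 were in the table and all 10 passed edgeR's filter on low counts, as did 15153 genes in all.

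RNA was sequenced from 4 fibrosarcoma cell lines, 2 libraries a line, 8 in all. The IRF8 KO label is carried by MC010 and MC011, whose tumors grew in IRF8 knock-out mice, and the WT label by MC654 and MC659, whose tumors grew in wild-type mice. All 4 lines were raised the same way, from a soft tissue sarcoma induced by the carcinogen methylcholanthrene, with the dissociated tumor kept in culture until a stable line had formed. No interferon treatment is given for any library, and the ages of the mice are not given in the sources used here. A line stands for 1 tumor, so each label has only 2 lines. Nothing in the labels says that the libraries of a line came from separate cultures. The p-values between lines then measure only the spread between these libraries, which may be technical. Those by label mix that spread with the one between the 2 lines of a label, and count libraries as if independent. The question asked was how the RNA of these GTPases differed between the labels and between the lines of one label.

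Libraries held between 74063616 and 116206078 counts, and levels are in CPM, which puts the counts of all libraries on one scale by TMM-adjusted library size. A count of 3, the floor, was worth between 0.0262 and 0.0408 CPM. The targeted gene went against the labels, with Irf8 at 442 and 347 counts in MC010, 32 and 10 in MC011, 1 and 2 in MC654, and 1 and 0 in MC659. Directions therefore follow the labels only. Whether labels were exchanged or the knocked-out allele is still transcribed was not tested, and an exchange would turn every direction by label given here. All 9 mesenchymal markers searched were in the table, at summed levels between 9744 and 10521 CPM in the libraries labelled IRF8 KO and between 14421 and 16163 CPM in those labelled WT. The lower sum lay with Fn1, which encodes fibronectin (log2 fold change -2.33, adjusted p = 0.000159). Without it, a sum taken after the values had been seen, the labels overlapped, at between 8023 and 9357 CPM under the KO label and between 6642 and 8066 CPM under the WT label. Of the 9 markers, Fn1 was lower and 3, Pdgfra, Thy1 and S100a4, were higher. Of 11 hematopoietic markers, 5 were in the table, with sums between 17.0 and 23.6 CPM under the KO label and between 16.4 and 16.6 CPM under the WT label. The hematopoietic sum covers moves in opposite directions. By the edgeR test Cd14 was higher under the KO label (log2 fold change 1.19, adjusted p = 0.0017). Csf1r was lower (-1.93, adjusted p = 0.0020). Cd68 lay lower in every library labelled IRF8 KO (-0.58, adjusted p = 0.0084), but did not pass on fold. Cd79a and Ptprc fell below the filter on low counts. Ptprc, the pan-leukocyte marker, had 18 and 13 counts in MC010 (0.157 and 0.177 CPM) and 0 in both libraries of MC011. It had 2 and 1 counts in MC654 and 2 and 2 in MC659, so most of its counts came from MC010. Endothelial markers (4 of 5 in the table) summed to between 0.228 and 0.884 CPM against between 0.680 and 0.827 CPM, and epithelial markers (3 of 4) to between 0.313 and 2.34 CPM against between 0.271 and 0.500 CPM. The part of other cells in the differences was not tested.

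IRG and GBP proteins are cell-autonomous defence factors. Interferon receptors signal through JAK kinases and STAT factors, which with interferon regulatory factors bind short elements in the promoters of these genes. The proteins then assemble on the membranes of vacuoles that hold parasites or bacteria and help to break them open. Within the IRG family the regulatory members Irgm1, Irgm2 and Igtp sit on host membranes and keep the effector members, such as Iigp1 and Ifi47, in check. GBP proteins are related to dynamin, and some of them, among them Gbp2 and Gbp5, carry a lipid anchor. IRF8 itself is a member of the interferon regulatory factor family, known mainly from blood cells.

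The promoter elements are shown because 9 of the 10 genes moved in one direction. RefSeq promoter windows (GRCm38.p6, 250 bases before to 50 bases after each start site) were at hand for 8 of the 10 genes, in 9 windows. They were searched on both strands for GAAANNGAAA, the core of the interferon-stimulated response element (ISRE), for GGAANNGAAA, the composite element of ETS and interferon regulatory factors, and for TTCNNNGAA, the gamma-activated site (GAS). The ISRE core was found for 7 of 8 genes, against 3.44% of all 32851 windows. The GAS letters were found for 4 of 8 genes (Irgm2, Igtp, Gbp5 and Gbp7) against 8.3% of all windows. The composite letters were found for 3 of 8 (Irgm2, Igtp and Gbp5) against 2.72%. The window of Ifi47 held none of the 3 motifs. The stretches around the matches upstream of the start site follow, 5′ to 3′ on the strand of the gene, with matched letters in capitals. Upstream here refers to the RefSeq start site. Of the 250 bases before it, 250 lie in annotated exons for Irgm1 and 61 for Gbp2. The Irgm1 stretch and part of the Gbp2 stretch, with its match, are thus annotated exon sequence. Gbp5 is left out, since its 4 upstream matches are spread along the window, at positions -245 (GAS), -165 (ISRE core), -82 (composite) and -52 (GAS) from the start site, and the last lies next to an annotated exon.
Irgm1: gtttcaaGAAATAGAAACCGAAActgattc
Irgm2: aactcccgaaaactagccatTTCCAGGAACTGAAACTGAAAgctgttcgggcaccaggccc
Igtp: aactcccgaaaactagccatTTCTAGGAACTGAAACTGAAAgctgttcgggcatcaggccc
Gbp2: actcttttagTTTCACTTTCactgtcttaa
Gbp3: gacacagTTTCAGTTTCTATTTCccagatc
Gbp7: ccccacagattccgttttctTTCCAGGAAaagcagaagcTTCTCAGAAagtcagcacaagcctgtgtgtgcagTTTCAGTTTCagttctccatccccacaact

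The Irgm1 stretch is chr11:48871428-48871457 on the minus strand and holds 2 ISRE cores that share the middle GAAA. The Irgm2 stretch is chr11:58214882-58214942 and the Igtp stretch chr11:58199491-58199551, both on the plus strand. They were identical at 59 of 61 positions. In both, a GAS, a composite element and an ISRE core overlapped, the composite starting 5 bases and the ISRE core 11 bases after the start of the GAS. This layout, looked for after it had been seen in these genes, was present in 5 of the 32851 windows (0.0152%), those of Igtp, Irgm2 and the related IRG genes Tgtp1, Tgtp2 and Gm12185. The Gbp2 stretch (chr3:142620594-142620623, plus strand) holds 1 ISRE core and that of Gbp3 (chr3:142559992-142560021, plus strand) 2 overlapping ones, all read on the opposite strand. The Gbp7 stretch (chr3:142530210-142530312, plus strand) holds 2 GAS and then 1 ISRE core, again on the opposite strand. A match of letters is a description and not a site of binding.

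By label, 9 of the 10 genes were lower under IRF8 KO than under WT. A call needed a log2 fold change over 0.59 in size and an adjusted p under 0.05 by the quasi-likelihood test of edgeR, adjusted over the whole table by the Benjamini-Hochberg method. Of all genes tested, 8.72% were lower by the same rule. None of the 10 was higher, as against 13.7% of all genes. The median log2 fold change of the 10 was -2.11 and that of all genes tested 0.02. In 8 of the 10 every library labelled IRF8 KO lay below every library labelled WT, which was so for 20.5% of all genes. The exceptions were Gbp2 and Gbp5. The 5 IRG genes summed to between 24.4 and 32.5 CPM in the libraries labelled IRF8 KO and to between 90.1 and 142.8 CPM in those labelled WT. The 5 GBP genes summed to between 21.4 and 43.3 CPM and to between 56.2 and 106.7 CPM. In bulk RNA, fewer cells that express a gene and less of its RNA per cell cannot be told apart.

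**Figure D1:**
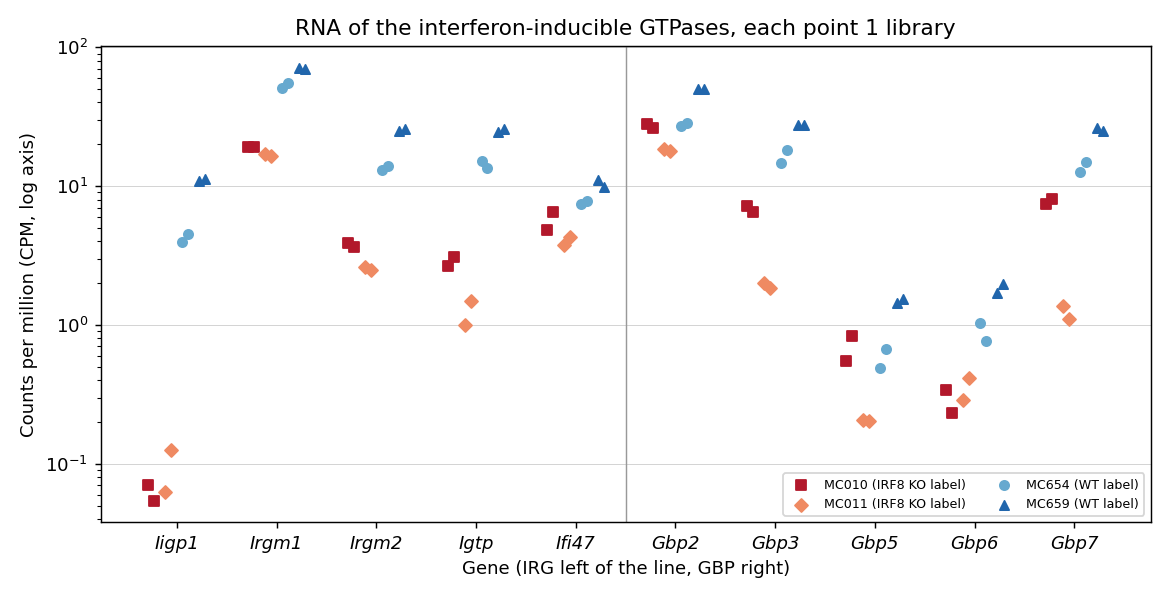
Level of each gene in each of the 8 libraries, in CPM on a log axis, with 1 point a library and the 4 lines side by side. The libraries labelled IRF8 KO (red and orange) lie below those labelled WT (blue) for every gene but Gbp2 and Gbp5, and Iigp1 shows the widest gap, with at most 0.127 CPM against at least 3.97 CPM.

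Iigp1 (ENSMUSG00000054072, chromosome 18 of mm10, 60376029 to 60392627) encodes an effector IRG that loads onto the parasite's vacuole. It had, in CPM, 0.0700 and 0.0544 (MC010), 0.0622 and 0.127 (MC011), 3.97 and 4.51 (MC654) and 11.0 and 11.2 (MC659). The libraries labelled IRF8 KO were near the floor, with between 4 and 10 counts each, against between 331 and 1010 counts in the others. The mean was 0.0783 ± 0.0328 CPM (SD, n = 4 libraries of 2 lines) against 7.66 ± 3.97 CPM (SD, n = 4), and the log2 fold change was -6.60 ± 0.54 (SE) at an adjusted p of 8.6e-05. No other of the 10 genes had a larger one.

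Irgm1 (ENSMUSG00000046879, chromosome 11, 48861968 to 48871683), a regulatory IRG, had, in CPM, 19.1 and 19.2 (MC010), 17.0 and 16.6 (MC011), 50.5 and 55.1 (MC654) and 71.3 and 69.2 (MC659). The lines of one label lay closer together than the labels did. The mean was 18.0 ± 1.38 CPM (SD, n = 4) under the KO label and 61.5 ± 10.3 CPM (SD, n = 4) under the WT label. The log2 fold change was -1.77 ± 0.13 (SE) at an adjusted p of 5.0e-05.

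Irgm2 (ENSMUSG00000069874, chromosome 11, 58199618 to 58222782) and Igtp (ENSMUSG00000078853, chromosome 11, 58199556 to 58207591) are regulatory IRG genes that overlap on the same strand. They shared 162 exon bases, 4.39% of those of Irgm2 and 8.01% of those of Igtp, so part of their counts is uncertain. Irgm2 had, in CPM, 3.91 and 3.65 (MC010), 2.60 and 2.47 (MC011), 13.0 and 13.9 (MC654) and 24.8 and 25.8 (MC659). Igtp had, in CPM, 2.64 and 3.07 (MC010), 0.996 and 1.49 (MC011), 15.2 and 13.5 (MC654) and 24.7 and 25.6 (MC659). Both genes were lowest in MC011 and highest in MC659, with no overlap between the labels. Irgm2 fell by 2.62 on the log2 scale (standard error 0.30, adjusted p = 0.000406). Igtp fell by 3.27 ± 0.41 (SE) at an adjusted p of 0.000682.

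Ifi47 (ENSMUSG00000078920, chromosome 11, 49076587 to 49096974), an effector IRG also named Irgd, showed the smallest gap of the IRG genes. It had, in CPM, 4.86 and 6.53 (MC010), 3.73 and 4.27 (MC011), 7.47 and 7.78 (MC654) and 11.0 and 9.82 (MC659). The labels did not overlap, but 6.53 CPM in a library of MC010 came near 7.47 CPM in one of MC654. The log2 fold change was -0.90 ± 0.22 (SE) at an adjusted p of 0.0129. Without line MC659 the adjusted p was 0.140. Its exons share 111 bases with Olfr56 on the same strand and 106 with the pseudogene Gm12188 on the other, and the strand setting of the counting is not stated.

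Of the GBP genes, Gbp3 (ENSMUSG00000028268, chromosome 3, 142560026 to 142573209) and Gbp7 (ENSMUSG00000040253, chromosome 3, 142530342 to 142550149) fell the most in MC011. Gbp3 had, in CPM, 7.15 and 6.54 (MC010), 2.01 and 1.86 (MC011), 14.7 and 18.2 (MC654) and 27.3 and 27.5 (MC659). Gbp7, which is known for a part in assembling the phagocyte oxidase, had, in CPM, 7.41 and 8.14 (MC010), 1.36 and 1.10 (MC011), 12.7 and 14.8 (MC654) and 26.3 and 24.9 (MC659). In both genes the lines stood apart in the order MC011, MC010, MC654, MC659. The log2 fold change of Gbp3 was -2.32 ± 0.51 (SE) at an adjusted p of 0.00847, and its adjusted p was 0.0980 without line MC659. That of Gbp7 was -2.13 ± 0.69 (SE) at an adjusted p of 0.0420. Gbp7 shares 637 exon bases, 11.3% of its own, with the pseudogene Gm43802. Its call was lost in 6 of 8 fits with 1 library left out, those without a library of MC011, MC654 or MC659 (adjusted p up to 0.0987). It was also lost without line MC654 (0.109), without line MC659 (0.260) and with the library number as a block (0.0678).

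Gbp2 (ENSMUSG00000028270, chromosome 3, 142620602 to 142638008), a lipid-anchored GBP, was of all called members the nearest to the threshold on p. It had, in CPM, 27.8 and 26.1 (MC010), 18.3 and 17.8 (MC011), 27.3 and 28.5 (MC654) and 49.9 and 50.3 (MC659). MC010 and MC654 overlapped, so the labels did too. The log2 fold change was -0.79 ± 0.26 (SE) at an adjusted p of 0.0445. The call was lost in 5 of 8 fits with 1 library left out, those without replicate 2 of MC010 or a library of MC011 or MC659 (adjusted p up to 0.117). It was lost as well without line MC011 (0.206), without line MC659 (0.366) and with the library number as a block (0.0708).

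Gbp5 and Gbp6 had the lowest counts of the GBP genes. Gbp5 (ENSMUSG00000105504, chromosome 3, 142493978 to 142522344), known as a promoter of inflammasome assembly, had, in CPM, 0.551 and 0.830 (MC010), 0.207 and 0.203 (MC011), 0.491 and 0.671 (MC654) and 1.43 and 1.53 (MC659). The libraries of MC010 overlapped those of MC654. The log2 fold change was -1.21 (standard error 0.58) and the adjusted p 0.138, so Gbp5 did not pass. Without line MC010 it was -2.34 with an adjusted p of 0.00440.

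Gbp6 (ENSMUSG00000104713, chromosome 5, 105270702 to 105293698) lies apart from the other GBP members. It had, in CPM, 0.341 and 0.231 (MC010), 0.290 and 0.418 (MC011), 1.03 and 0.765 (MC654) and 1.69 and 1.97 (MC659). The lines labelled IRF8 KO were alike and below both others. The log2 fold change was -2.08 ± 0.36 (SE) at an adjusted p of 0.00297. The value is uncertain, since 70.7% of the 50-base stretches of its exons also occur in other genes, 65% in Gm43302, and reads of these genes may be split or lost in counting.

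The libraries of a line are not independent, and adding up the counts of each line leaves 2 lines against 2. Then edgeR called 0 of 16927 genes, 3658 of which had an unadjusted p under 0.05. Of the 10 GTPase genes none was called, 6 had an unadjusted p under 0.05 and all 10 kept a negative log2 fold change. With the line as a random block in limma-voom, 6 of the 10 were called lower, beside 839 of all 15153 genes tested. Lost were Ifi47 (adjusted p = 0.0662), Gbp2 (0.0996) and Gbp6 (0.106).

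Set line against line, the difference held for most genes in every combination. The comparisons share lines, so their values are only set side by side. Lower in the line labelled IRF8 KO were 7 of 10 genes in MC010 against MC654 (16.3% of all genes tested), 10 of 10 in MC010 against MC659 (17.7%), 10 of 10 in MC011 against MC654 (12.4%) and 10 of 10 in MC011 against MC659 (13.7%). The 7 genes lower in all 4 comparisons, as were 5.35% of all genes, were Iigp1, Irgm1, Irgm2, Igtp, Gbp3, Gbp6 and Gbp7. The 3 others missed the threshold in MC010 against MC654 alone. There the log2 difference was -0.43 for Ifi47 (standard error 0.14, adjusted p = 0.0115), -0.05 for Gbp2 (standard error 0.06, adjusted p = 0.527) and 0.23 for Gbp5 (standard error 0.33, adjusted p = 0.561). Irgm1 was the steadiest, with log2 differences of -1.46, -1.87, -1.65 and -2.06 in the order of the comparisons above. Gbp7 ranged the widest, from -0.83 in MC010 against MC654 to -4.37 in MC011 against MC659.

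**Figure D2:**
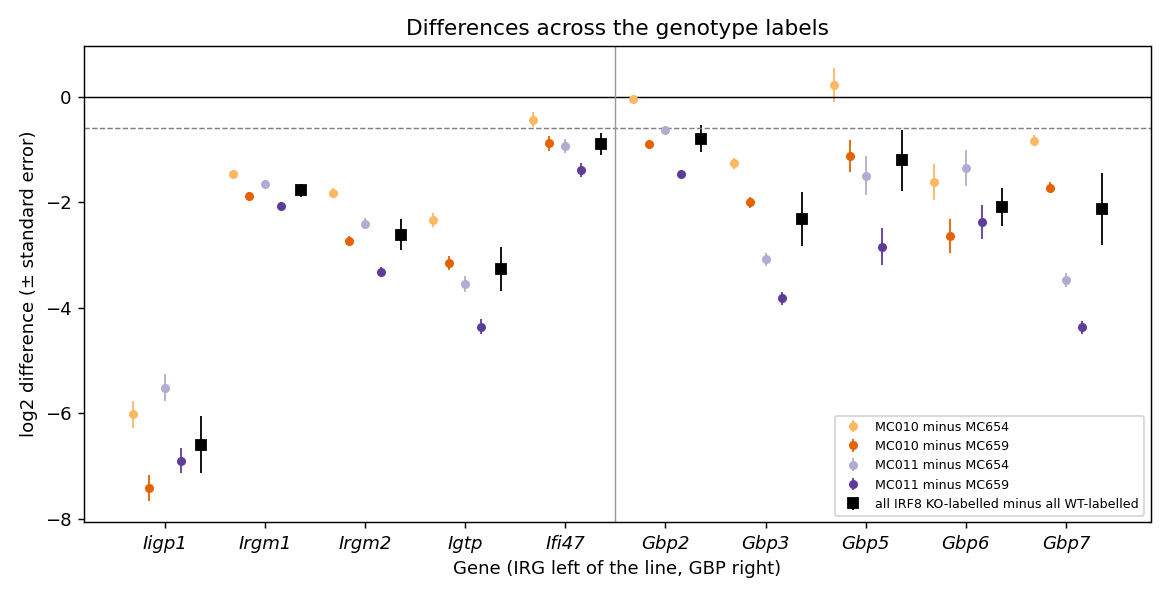
Log2 difference with its standard error for each gene for each of the 4 pairs of an IRF8 KO-labelled and a WT-labelled line (circles) and over all libraries by label (black squares). The dashed line is the fold threshold of -0.59, and all circles lie below it but those of Ifi47, Gbp2 and Gbp5 in MC010 against MC654.

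Within the IRF8 KO label, 3 of the 4 members that differed between the 2 lines lay in the GBP cluster of chromosome 3. Higher in MC010 than in MC011 were 4 of the 10 genes, as were 15.7% of all genes tested, and none was lower. The 4 higher ones were Gbp7 (log2 difference 2.64, standard error 0.13, adjusted p = 9.7e-11), Gbp3 (1.82, 0.13, 4.8e-09), Gbp5 (1.72, 0.37, 0.000769) and, of the IRG genes, Igtp (1.21, 0.17, 1.2e-05). Gbp2, in the same cluster, stood at 0.58 (standard error 0.06) and Irgm2 at 0.58 (standard error 0.11), just inside the fold threshold with adjusted p of 9.5e-07 and 0.000226. Ifi47 stood at 0.50 and Irgm1 at 0.19. Iigp1 (-0.51, standard error 0.52) and Gbp6 (-0.26, standard error 0.37) did not pass.

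Within the WT label, the lines differed in the same family. Lower in MC654 than in MC659 were 8 of the 10 genes, as against 3.71% of all genes tested. None was higher, beside 188 of the 15153 genes tested. The log2 difference was -1.39 for Iigp1 (standard error 0.14, adjusted p = 6.6e-06) and -1.35 for Gbp5 (standard error 0.31, adjusted p = 0.00887). Gbp6 stood at -1.03, Irgm2 at -0.91, Gbp7 at -0.90, Gbp2 at -0.85, Igtp at -0.81 and Gbp3 at -0.74. Ifi47 at -0.45 and Irgm1 at -0.41 passed on p but not on fold. Gbp3 lost its call with replicate 1 of MC654 left out, Gbp5 with that library or replicate 2 of MC659 left out, and Gbp6 with replicate 2 of MC654 or either library of MC659 left out (adjusted p up to 0.185 for Gbp6).

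**Figure D3:**
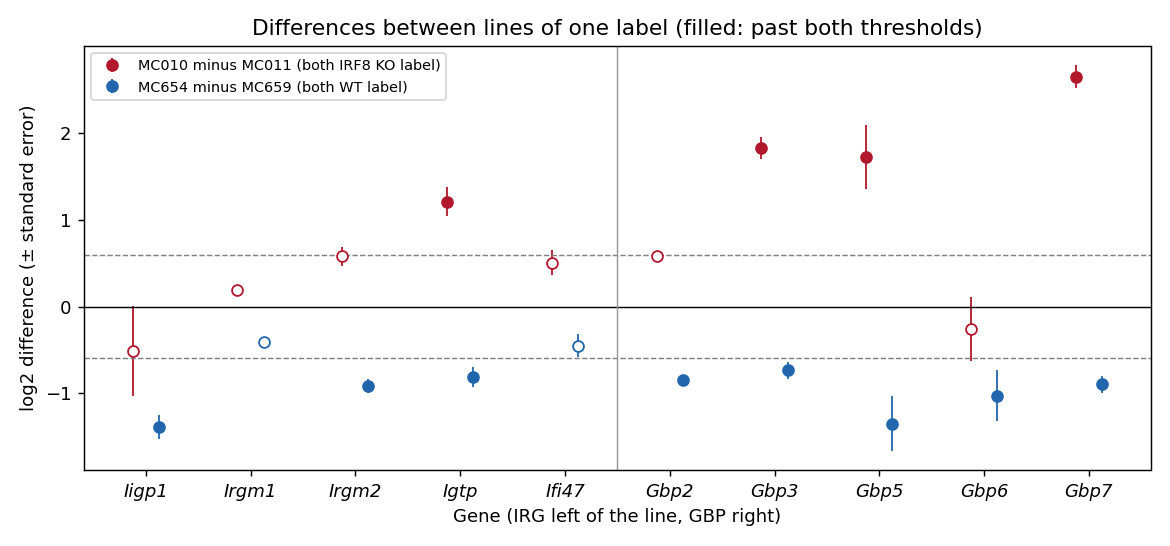
Log2 difference with its standard error between the lines labelled IRF8 KO (MC010 minus MC011, red) and between the lines labelled WT (MC654 minus MC659, blue). Filled points passed both thresholds, and dashed lines mark 0.59 in either direction. The red points of Gbp3, Gbp5 and Gbp7 rise to between 1.72 and 2.64, and the blue ones lie below 0 for every gene.

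MC659 had the highest mean of the 4 lines for all 10 genes, as it did for 21.3% of all genes tested. The order MC011, MC010, MC654, MC659 from low to high held for 7 of the 10 and for 6.59% of all genes. This order was chosen after the values had been seen. Gbp5 departed from it by a higher mean in MC010 than in MC654, which is within their spread, and Iigp1 and Gbp6 by a higher mean in MC011 than in MC010, which did not pass the test either.

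Per kb of exon, the genes kept to a broad order of level. Gbp2 was highest in every line, at 10.7 CPM per kb in MC010, 7.18 in MC011, 11.1 in MC654 and 19.9 in MC659. In the lines labelled IRF8 KO Irgm1 came next, at 3.30 CPM per kb in MC010 and 2.89 in MC011. Ifi47 followed there, at 2.30 and 1.62 CPM per kb. In the lines labelled WT Irgm1 and Igtp came after Gbp2. Irgm1 was at 9.08 and Igtp at 7.09 CPM per kb in MC654, and they were at 12.1 and 12.4 in MC659. Ifi47 ranked below Irgm2 and Gbp3 in these lines, at 3.08 and 4.22 CPM per kb. Lowest was Iigp1 in the lines labelled IRF8 KO, at 0.0107 and 0.0162 CPM per kb, and Gbp5 in those labelled WT, at 0.0875 and 0.223. These levels were divided by the union of all annotated exons, which need not be the isoform that a line uses.

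Some other genes of the IRG family were lower too. Of 14 further IRG and IRG-like genes, 12 were in the table and 10 were tested. Of these 10, 5 were lower under the KO label, 0 were higher and 5 did not pass. Of all genes tested, 8.72% were lower and 13.7% higher. Tgtp1, an effector IRG, had between 0.0350 and 0.109 CPM in the libraries labelled IRF8 KO and between 0.935 and 1.88 CPM in those labelled WT (log2 fold change -4.23, standard error 0.42, adjusted p = 0.000200). Tgtp2 had a log2 fold change of -2.79, but 85.8% of its 50-base stretches occur in Tgtp1, so that the 2 cannot be told apart well. Gm12250, annotated as a pseudogene beside Igtp, had 1 and 1 counts in MC010, 11 and 4 in MC011, and between 40 and 165 in the WT-labelled libraries. Gm4951, on the same chromosome as Iigp1, had 1 count or none in each library labelled IRF8 KO and 77, 86, 285 and 292 in the others. F830016B08Rik had 1 count in all under the KO label and between 16 and 48 in each WT-labelled library. Irgq, a relative of the family, had a log2 fold change of -0.26 with an adjusted p of 0.148. Gvin1 and Gm4070, very large interferon-inducible GTPases, had at most 2 counts in either library of MC011, but 94 and 95 (Gvin1) and 85 and 62 (Gm4070) in MC010. In the WT-labelled libraries Gvin1 had 86 and 60 (MC654) and 191 and 229 (MC659) and Gm4070 17 and 49 (MC654) and 87 and 88 (MC659), and neither gene passed by label. The IRG-like gene 9930111J21Rik1 went the other way, with a log2 fold change by label of 1.10 (adjusted p = 0.344). It was higher in MC011 than in MC654 (1.97, adjusted p = 0.00518) and MC659 (1.91, adjusted p = 0.00587). On the same chromosome, 9930111J21Rik2 was higher in MC011 than in MC654 (0.97, adjusted p = 0.00132), but lower in MC010 than in MC654 (-1.83, adjusted p = 1.5e-05) and MC659 (-2.24, adjusted p = 1.3e-06).

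Of 6 other GBP genes 2 were in the table, and both went with 1 line. Gbp9 (chromosome 5, 105077630 to 105139539) had, in CPM, 11.0 and 11.8 (MC010), 0.166 and 0.165 (MC011), 0.288 and 0.224 (MC654) and 0.771 and 1.17 (MC659). MC010 stood far above the 3 other lines, with a log2 difference of 6.09 from MC011 (standard error 0.24, adjusted p = 6.3e-12). By label its adjusted p was 0.108. Gbp4, which overlaps it by 60 exon bases, had 156 and 68 counts in MC010 and at most 6 in any other library, and fell below the filter. Gbp6, on the same chromosome, showed no such excess in MC010.

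Upstream of the GTPases, 4 of 7 tested transcription factor genes were lower, beside 8.72% of all genes tested. Of 7 interferon receptor and kinase genes 1 was higher, Jak2 (log2 fold change 1.15, standard error 0.21, adjusted p = 0.00409), and 0 were lower. These counts are near the 13.7% and 8.72% of all genes tested. Ifnar1 (0.48, adjusted p = 0.000522) and Ifnar2 (0.37, adjusted p = 0.0217) passed on p but not on fold. Ifngr1, the ligand-binding chain of the interferon-gamma receptor, was at 0.11 (adjusted p = 0.688). Of 8 transcription factor genes 7 were in the table, 4 were lower and 1, Irf8 with the counts above, was higher. Stat2 (-1.36) and Irf9 (-1.37), partners in the complex that binds the ISRE, were lower, as were Irf1 (-0.74) and Irf7 (-3.87). Irf2 was at 0.24 and did not pass, and Nlrc5 at -0.46 passed on p (adjusted p = 0.0476) but not on fold.

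Among 5 brakes on interferon signalling, Usp18, which dampens type I receptor signalling and is itself induced by interferon, was lower (log2 fold change -5.05, standard error 0.74, adjusted p = 0.00130). Socs1 (0.90) and Socs3 (1.18), inhibitors of JAK kinases, were higher, 2 of 5 beside 13.7% of all genes tested. For Socs1 the labels overlapped, and MC011 did not pass against MC654 (0.31) or MC659 (0.54). Ptpn6 was at 35.7 CPM in MC010 and at most 1.91 CPM in the other lines, and did not pass by label. Of 13 genes that target GTPases to vacuoles 1 was higher and 2 were lower, which is near the 13.7% and 8.72% of all genes tested. Trim21, a ubiquitin ligase, fell by 1.53 on the log2 scale (adjusted p = 0.0217) and Atg3, of the ubiquitin-like conjugation system, by 0.62 (adjusted p = 0.000195). Map1lc3a rose by 0.88, and the other 10 did not pass. Of 6 inflammasome genes linked to GBP proteins 5 were tested. Of these 5, 2 were higher and 1 was lower, beside 13.7% and 8.72% of all genes tested. Casp4 (3.50), the mouse caspase that senses cytosolic lipopolysaccharide, and Gsdmd (2.86), the pore-forming protein it cleaves, were higher. Pycard was lower, with 2 counts in all under the KO label and between 15 and 22 in each WT-labelled library. Casp1 had 551 and 435 counts in MC010 and at most 1 in any other library.

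**Figure D4:**
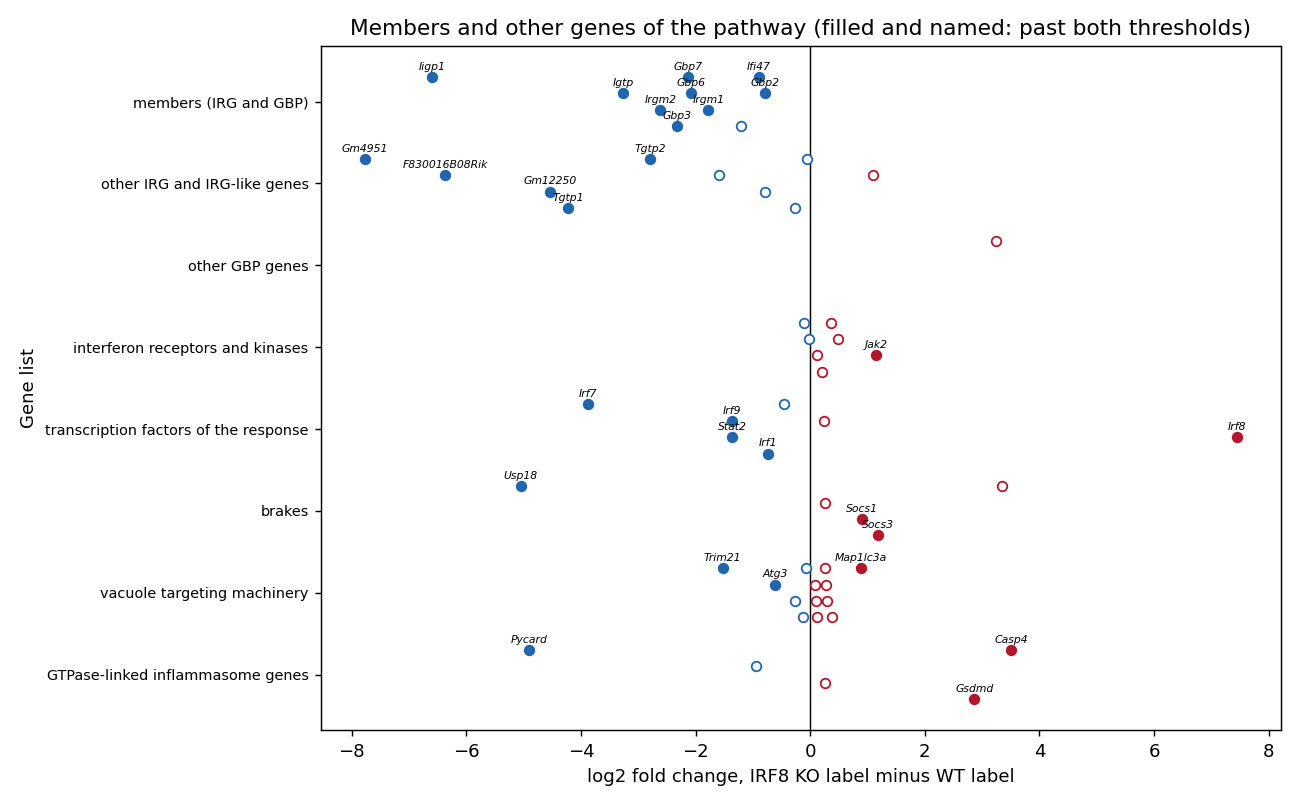
Log2 fold change (IRF8 KO label minus WT label) of the 10 GTPase genes, in the top row, and of the tested genes of 7 lists of related genes. Filled and named points passed both thresholds, and for Gm4951, F830016B08Rik, Pycard and Irf8, which have next to no counts under 1 label, the fitted size depends on the fit. Blue points are below 0 and red points above it.

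Genes beside the members were called about as often as genes at large. Of 40 tested genes of no list whose midpoint lay within 500 kb of a member, 5 were lower and 4 higher, beside 8.72% and 13.7% of all genes tested, with a median log2 fold change of -0.07. On chromosome 11, around Irgm1, Ifi47, Igtp and Irgm2, 2 of 20 were lower and 0 higher. The lower ones were Trim7 (-1.07), which ends 9.76 kb from Irgm1, and Larp1 (-0.60), which ends 137.5 kb from Igtp. On chromosome 3, around the GBP cluster, 1 of 7 was lower, Pdlim5 (-1.22), which ends 98.3 kb from Gbp5. On chromosome 5, around Gbp6, 2 of 5 were higher (Lrrc8b at 1.38 and Lrrc8d at 1.10) and 1 was lower (Zfp951 at -3.71). On chromosome 18, around Iigp1, 2 of 8 were higher (Smim3 at 0.68 and Synpo at 1.38) and 1 lower, Cd74, with a log2 fold change of -4.09 from at most 0.275 CPM in any line. Between MC010 and MC011, where Gbp7, Gbp3 and Gbp5 differed by 1.72 or more, 1 of the 7 genes around that cluster was higher in MC010, Kyat3 (0.97), and 2 were lower, Bmpr1b (-3.86) and 9530052C20Rik (-2.10), beside 2376 higher and 2417 lower among the 15153 genes tested. The other 4 stood at 0.58 (Pdlim5), 0.46 (Gtf2b), -0.19 (Pkn2) and 0.47 (Gm2574).

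**Figure D5:**
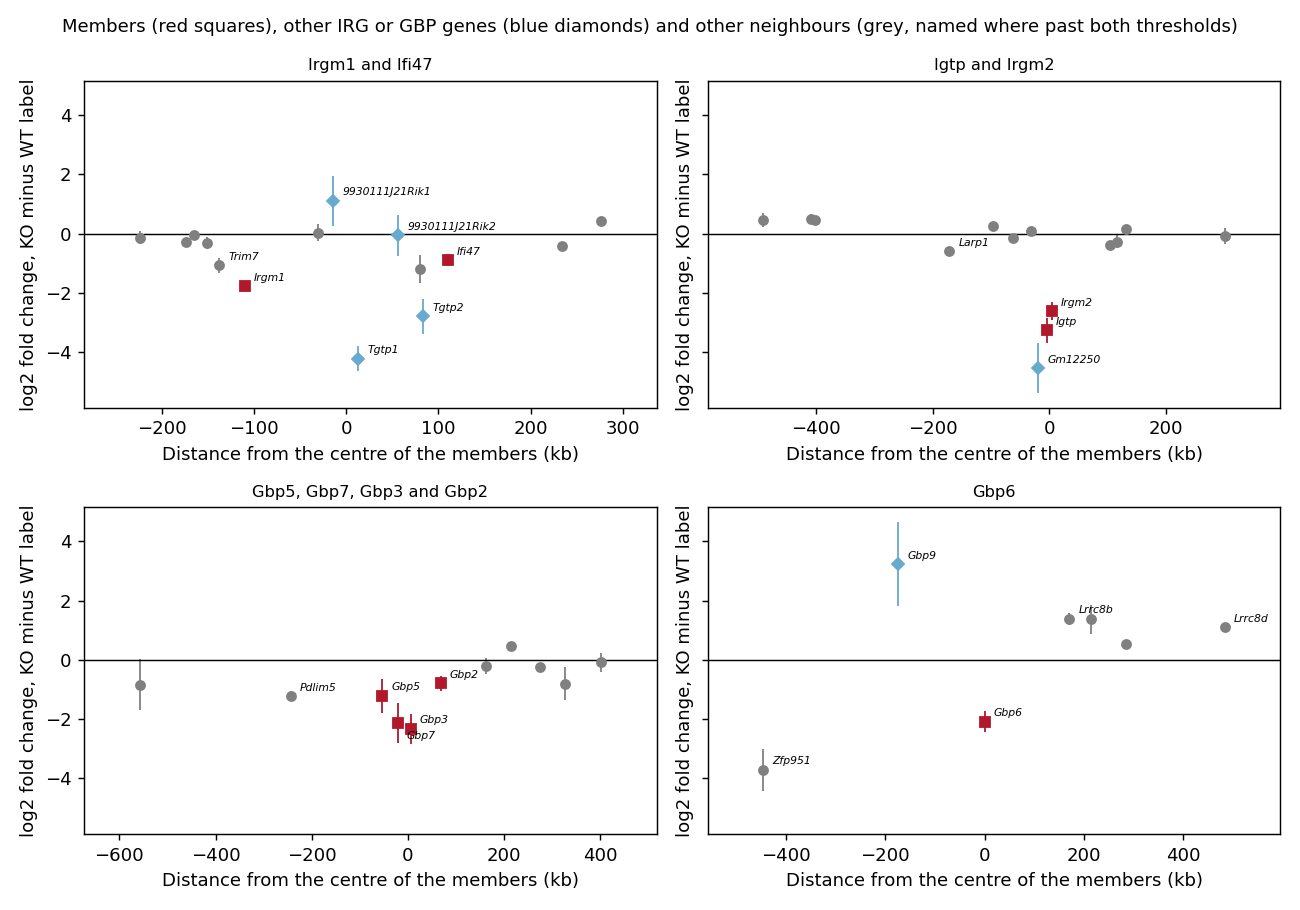
Log2 fold change with its standard error (IRF8 KO label minus WT label) against distance in kb from the centre of the members, for 4 groups of members on chromosomes 11, 3 and 5. The members and the IRG genes Tgtp1, Tgtp2 and Gm12250 lie below 0. The IRG-like gene 9930111J21Rik1 lies above 0 (1.10) and 9930111J21Rik2 near 0 (-0.06). Most of the grey neighbours on chromosome 11 lie near 0, and those around Gbp6 run from -3.71 to 1.38. Gbp9 lies above 0 with a standard error of 1.41.

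The genes whose profile over the 4 lines came nearest to the median profile of the 10 were sought among all tested genes outside the lists, by the root mean square distance of centred log2 CPM line means. The nearest was Uba7, at a distance of 0.0881. Uba7 encodes the activating enzyme for the ubiquitin-like protein ISG15. It had, in CPM, 4.73 and 5.48 (MC010), 2.29 and 2.42 (MC011), 12.1 and 11.4 (MC654) and 22.0 and 23.0 (MC659). The next were Tmem130 (0.102), Gm12216 (0.107), AI115009 (0.140) and Gm42575 (0.153), which had at most 51 counts in any library. With 4 lines, this likeness rests on 4 points.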

How the data were processed

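RNA was sequenced from 8 libraries of 4 tumor cell lines with a stranded mRNA kit. Per the labels and the submitters' processing notes, reads were aligned with STAR 2.7.3a to mm10 (GRCm38.p6) and counted per gene with HTSeq 0.11.2. The study's methods name other versions, and the strand setting is not given in the sources used here. The authors deposited a raw count per gene and library, which was used here. Not used were their deposited signal (the count divided by a size factor per library) and the columns of their own DESeq2 comparison, which hold the mean of the signal, the log2 fold change and its error, the Wald score and the p-values before and after adjustment. Genes under 20 counts in total are not in the table. Columns were matched to samples by name, and groups came from the labels.

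Genes that passed filterByExpr by label (15153) were scaled by TMM and compared with edgeR 4.0.16 in R 4.3.3 (glmQLFit, robust, and glmQLFTest), 4 libraries against 4 with no other term, with Benjamini-Hochberg adjustment. Calls needed an adjusted p under 0.05 and a log2 fold change over 0.59 in size, the study's thresholds. Standard errors came from dividing log2 fold changes by the root of F. Lines were compared in another fit with a group for each line. Exon lengths and overlaps came from GENCODE annotation of GRCm38. The fits were run on simulated counts with known changes and no line effect. Such counts cannot show how the fit by label deals with the likeness of libraries of the same line. Floors cover counting error only.

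The members and lists were chosen with earlier results of these data known. All members and any gene of the lists could be named, besides the 5 genes nearest in profile and, chosen after their values were seen, the called and flanking neighbours. Alternatives were DESeq2 1.42.0, no filter, sums per line, upper-quartile scaling, limma-voom (limma 3.58.1) with lines as random blocks, library numbers as a block, each library and each line left out, and no fold threshold. For the lists, the neighbours and some line comparisons they were added after the data had been seen. Same-numbered libraries of 2 lines had deviations that correlated between -0.027 and 0.055 over 6 pairs of lines. An item of the lists is not reported here and enters no list count. No gene on the sex chromosomes is named here, but none was taken out of the scaling, the fits or the shares of all genes.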

Additional observations from a re-analysis of the deposited data

Results flagged for a closer look

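Differences between lines of one label, by a test of the difference in edgeR with one group per line, were past both thresholds in 12 cases. Between the lines labelled IRF8 KO, MC010 minus MC011, the log2 difference was 1.21 for Igtp, 1.82 for Gbp3, 1.72 for Gbp5 and 2.64 for Gbp7. Between the lines labelled WT, MC654 minus MC659, it was -1.39 for Iigp1, -0.91 for Irgm2, -0.81 for Igtp, -0.85 for Gbp2, -0.74 for Gbp3, -1.35 for Gbp5, -1.03 for Gbp6 and -0.90 for Gbp7. These tests rest on the spread between 2 libraries of a line, so they compare lines and not genotypes. A search for a single outlying library says little here, since the 4 libraries of a label are a pair from each of 2 lines, and nothing is drawn from it.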

How the results depend on the processing

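The count of members lower under the KO label was 9 in the analysis reported. DESeq2, no filter, upper-quartile scaling and no fold threshold each gave 9, limma-voom with lines as random blocks gave 6, and the fits without 1 library gave between 7 and 9. It was 0 with sums per line and 5 without line MC659, and 10 without line MC010. The all-gene count moved as well. Lower were 1321 of 15153 genes in the analysis reported and 839 of 15153 with limma-voom. That count was 0 of 16927 with sums per line, 699 of 16295 without line MC659 and 2056 of 16095 without line MC010. Iigp1, Irgm1, Irgm2, Igtp and Gbp6 were called in 4 of 4 fits without a line, Ifi47 and Gbp3 in 3, Gbp2 and Gbp7 in 2 and Gbp5 in 1. With library numbers as a replicate block the count of members was 7, beside 1189 of all 15153 genes. Gbp2 and Gbp7 were lost, and the block changed no other call of a member. Libraries of different lines share only a number.
Genes of the lists that were lower numbered 13 and went to 0 with sums per line. Those that were higher numbered 7 and went to 0 with sums per line, 11 without line MC011, 2 without line MC654, 3 without line MC659 and 11 with no fold threshold. Called neighbours numbered 9 and went to 0 with sums per line, 14 without line MC010, 15 without line MC011, 5 without line MC659 and 16 with no fold threshold. Members that differed between MC010 and MC011 numbered 4, between 4 and 6 with 1 library left out, and 8 with no fold threshold. Members lower in all 4 comparisons of lines numbered 7, and 7 or 8 in every alternative run. The log2 difference of MC010 minus MC011 with 1 library left out ran from -0.96 to 0.0315 for Iigp1 and from -0.60 to 0.00837 for Gbp6. Both turned sign only without replicate 2 of MC011, and neither had passed. With sums per line fewer samples enter the fit, and with no fold threshold the rule itself is wider. The cause of the other shifts was not tested. Depth limits Gbp5, Gbp6 and Iigp1 the most, which had under 70 counts in each library labelled IRF8 KO.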
